A study of Mus musculus with 38 samples.

Results

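SALL4-WT-only sites are stretches of the mouse genome at which the SALL4 CUT&Tag library of cells given SALL4-WT had a peak and the library of cells given SALL4-delN12 had none. CUT&Tag marks where an antibody's target sits on chromatin by cutting the DNA beside it. The score of a peak is that of the peak caller MACS, 10 times the negative log10 of its p-value. A peak of the SALL4-WT list was kept when its score was at least 100 and it overlapped no peak of the SALL4-delN12 list, of any score, by 1 bp or more. This left 13371 sites out of the 69475 peaks of the SALL4-WT list, of which 38773 had a score of at least 100. The other 25402 peaks of that score overlapped a SALL4-delN12 peak and are called shared sites, and 16831 peaks of the SALL4-delN12 list with a score of at least 100 that overlapped no SALL4-WT peak are called SALL4-delN12-only sites. The sets were chosen by these SALL4 scores and overlaps, so SALL4 scores and overlaps describe the sets and were not tested, and a site without a peak in a list is one at which no peak was called, not one shown to be unbound.

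SALL4 is a zinc finger transcription factor of the early embryo that acts in pluripotent cells and in extra-embryonic lineages. Its N terminus recruits NuRD, a complex that joins a nucleosome remodeler of the CHD family to the histone deacetylases HDAC1 and HDAC2 and is best known for closing regulatory DNA and removing histone acetylation. SALL4-delN12 lacks the N-terminal 12 residues and with them the contact with NuRD. H3K27ac, acetylation of histone H3 at lysine 27, marks active promoters and enhancers, and ATAC-seq marks accessible DNA.

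All cells were mouse embryonic fibroblasts (MEFs) of E13.5 embryos from a cross of OG2 males, which carry an Oct4-GFP transgene, with 129S4/SvJaeJ females. They were infected with a pMXs retrovirus carrying SALL4-WT or SALL4-delN12 as the single factor and kept in iCD3 medium without BMP4, to compare how each form turns fibroblasts toward primitive endoderm. SALL4 and H3K27ac CUT&Tag were made at day 6, ATAC-seq at days 1, 5, 9 and 11 and in MEFs, and bulk RNA-seq at days 1, 5, 9 and 11. Each condition is 1 library, or 1 peak list called on merged replicates, so there was no spread between replicates at any form and day, and values at a single day are given without a test. The 8 RNA libraries were also fitted together, with form and day as terms, which tests for a difference that is shared by the days. The days may be samples of 1 infection, so that the p-values of this fit measure the spread between days and not between cultures. Both forms were delivered by retrovirus on top of what the fibroblasts express, and the cultures were mixtures of cells.

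The 2 SALL4 lists were alike in size, with 69475 and 67310 peaks for SALL4-WT and SALL4-delN12, and the 8 ATAC lists of infected cells held between 78517 and 98422 peaks, against 125470 in MEFs. The H3K27ac list of SALL4-delN12 held 45599 peaks and that of SALL4-WT 19841, and numbers of reads were not derived from the files. FPKM of Sall4 was 549, 491, 518 and 290 at days 1, 5, 9 and 11 with SALL4-WT and 809, 623, 971 and 428 with SALL4-delN12. Col1a1, which marks fibroblasts, lay between 472 and 1666 FPKM and Vim between 424 and 937 FPKM in the 8 RNA libraries, and the summed FPKM of 6 fibroblast markers lay between 1956 and 2691. Col1a1 takes much of that sum and was higher with SALL4-delN12 (693 and 1424 FPKM at day 5 with SALL4-WT and SALL4-delN12), while 4, 5, 4 and 4 of the 6 markers were lower with SALL4-delN12 at days 1, 5, 9 and 11, among them Twist1 (118 and 51.6 FPKM at day 5) and Prrx1 (41.1 and 12.9 FPKM). Gata4, Sox17, Foxa2 and Lama1, which mark primitive endoderm, reached 29.3, 16.2, 7.68 and 50.2 FPKM at day 11 with SALL4-delN12 and 1.51, 0.22, 0.46 and 3.38 with SALL4-WT. The summed FPKM of 5 macrophage markers (Cd68, Ptprc, Csf1r, C1qa and Lyz2) was 310, 177, 152 and 176 with SALL4-WT and 283, 368, 427 and 891 with SALL4-delN12. That of 4 keratinocyte markers (Krt5, Krt14, Krt17 and Trp63) was 1.20, 1.84, 5.03 and 14.1 with SALL4-WT and 2.33, 28.0, 18.7 and 22.2 with SALL4-delN12, with Krt5 and Krt14 listed at 0 in the SALL4-WT library of day 5. In bulk samples, fewer cells of a type and less RNA per cell cannot be told apart.

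The sequences below are examples of the sites, as 200 bp on the plus strand of the RefSeq GRCm38.p6 genome (mm10) around the strongest day 5 ATAC peak of the same form in the site, clear of annotated exons. They are 2 of the 6 highest-scoring SALL4-WT-only sites, the SALL4-WT-only sites in the promoters of Krt8, Krt19 and Tnnt3, which the expression results below turn on, and, for contrast, the 2 highest-scoring SALL4-delN12-only sites. Capitals mark matches, on either strand, to the AP-1 motif TGACTCA, the KLF motif GGGTGTG, the E-box CAGGTG that ZEB and SNAI factors bind, the RUNX motif TGTGGTT and the AT-rich hexamer AATATT that the fourth zinc finger cluster of SALL4 prefers. These 5 were picked out of the 18 motifs searched after their counts had been seen. The examples are not typical of their sets: all 3 printed promoters hold an AP-1 match, which 11% of SALL4-WT-only promoter sites do, and 4 of the 6 highest-scoring windows hold none of the 5 motifs. In Krt19 the KLF and RUNX matches overlap and are printed as 1 run of capitals.
Ifrd1, nearest start site, in an intron of Zfp277, chr12:40331551-40331750: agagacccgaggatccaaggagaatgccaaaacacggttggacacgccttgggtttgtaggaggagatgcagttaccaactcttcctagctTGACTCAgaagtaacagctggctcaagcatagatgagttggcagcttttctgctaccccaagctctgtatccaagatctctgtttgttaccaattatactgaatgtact
Nell2, intron, chr15:95370784-95370983: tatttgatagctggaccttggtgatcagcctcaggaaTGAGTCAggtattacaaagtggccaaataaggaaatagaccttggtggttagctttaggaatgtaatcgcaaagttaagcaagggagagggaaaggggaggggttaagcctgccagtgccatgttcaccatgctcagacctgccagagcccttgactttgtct
Krt8, promoter, chr15:102005392-102005591: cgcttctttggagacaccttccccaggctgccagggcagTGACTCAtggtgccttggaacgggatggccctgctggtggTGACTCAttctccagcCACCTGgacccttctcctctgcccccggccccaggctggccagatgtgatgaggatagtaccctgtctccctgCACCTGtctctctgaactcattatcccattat
Krt19, promoter, chr11:100147668-100147867: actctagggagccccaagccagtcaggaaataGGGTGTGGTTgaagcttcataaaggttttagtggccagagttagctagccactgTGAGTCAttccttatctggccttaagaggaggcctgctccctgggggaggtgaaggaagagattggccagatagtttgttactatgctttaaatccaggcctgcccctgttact
Tnnt3, promoter, chr7:142499090-142499289: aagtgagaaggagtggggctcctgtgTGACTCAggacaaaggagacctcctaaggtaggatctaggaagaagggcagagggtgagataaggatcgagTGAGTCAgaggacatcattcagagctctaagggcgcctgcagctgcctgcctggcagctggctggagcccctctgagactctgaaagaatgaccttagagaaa
Tspan8 (SALL4-delN12-only), intron, chr10:115821289-115821488: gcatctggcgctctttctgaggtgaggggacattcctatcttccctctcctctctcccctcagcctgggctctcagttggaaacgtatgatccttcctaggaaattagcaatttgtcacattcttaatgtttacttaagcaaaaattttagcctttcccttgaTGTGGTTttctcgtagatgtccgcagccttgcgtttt
Lin7a (SALL4-delN12-only), intron, chr10:107347961-107348160: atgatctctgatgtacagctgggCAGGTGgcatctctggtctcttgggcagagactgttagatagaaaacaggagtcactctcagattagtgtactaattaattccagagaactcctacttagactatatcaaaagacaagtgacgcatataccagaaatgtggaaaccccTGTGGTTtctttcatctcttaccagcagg

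The Ifrd1 and Nell2 sites hold 1 AP-1 match each. Krt8 holds 2 AP-1 and 2 E-box matches, Krt19 1 AP-1 match beside the KLF and RUNX overlap, and Tnnt3 2 AP-1 matches. Tspan8 holds 1 RUNX match and Lin7a 1 RUNX and 1 E-box match. A match says only that the letters are present.

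Over all sets, motif content was counted in the central 300 bp. The AP-1 motif was present in 32.1% of SALL4-WT-only sites, 29.0% of shared sites and 29.0% of SALL4-delN12-only sites, against 4.64% of 88263 windows of that length spread over the genome. This motif, of FOS and JUN factors, was rarer in promoters, at 11%, 5.46% and 18.8% in the same order, than outside them, at 35.4%, 36.6% and 29.3%. The E-box CAGGTG was in 22.1% of SALL4-WT-only sites, 15.9% of shared and 9.96% of SALL4-delN12-only sites, with 17.0% in the genome windows. The KLF motif stood at 11.5%, 8.64% and 4.84% in the same order, with 4.70% in the genome. The GC box GGGCGG of KLF and SP factors had another order, at 12.6% of SALL4-WT-only, 20.1% of shared and 2.84% of SALL4-delN12-only sites (genome 2.81%). Other motifs were most frequent at SALL4-delN12-only sites. The SALL4 hexamer AATATT was in 2.69% of SALL4-WT-only sites, 4.91% of shared and 15.4% of SALL4-delN12-only sites (genome 15.5%). The RUNX motif was in 9.24%, 10.1% and 16.0% (genome 6.80%). The motif of GATA factors, AGATAA, was in 13.3%, 13.4% and 20.9% (genome 19.3%), and that of SOX factors, ACAATG, was in 15.8%, 15.2% and 21.8% (genome 18.3%). The TEAD motif GGAATG was in 21.5%, 22.3% and 26.1% (genome 15.9%), the FOX motif TGTTTAC in 4.51%, 4.76% and 5.86% (genome 4.47%) and the POU octamer in 1.06%, 1.38% and 2.56% (genome 2.62%).

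Base composition moved with these counts. The median GC content of the central 300 bp was 50.7% at SALL4-WT-only sites, 49% at shared sites, 41.7% at SALL4-delN12-only sites and 41.3% in the genome windows. The whole lists differed too, with a median GC of 49.3% over all SALL4-WT peaks and 44.7% over all SALL4-delN12 peaks. Of the SALL4-WT peaks of score 100 or more, the share that had no SALL4-delN12 peak was 15.5% under 40% GC, 22.8% at 40 to 45%, 35.2% at 45 to 50%, 46.8% at 50 to 55%, 46.6% at 55 to 60% and 22.6% at 60% or more. The share of SALL4-delN12 peaks without a SALL4-WT peak fell over the same bins from 66.3% to 1.19%. A difference in GC between the 2 SALL4 libraries and one between the sites the 2 forms occupy cannot be told apart here, with 1 library per form.

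**Figure D1:**
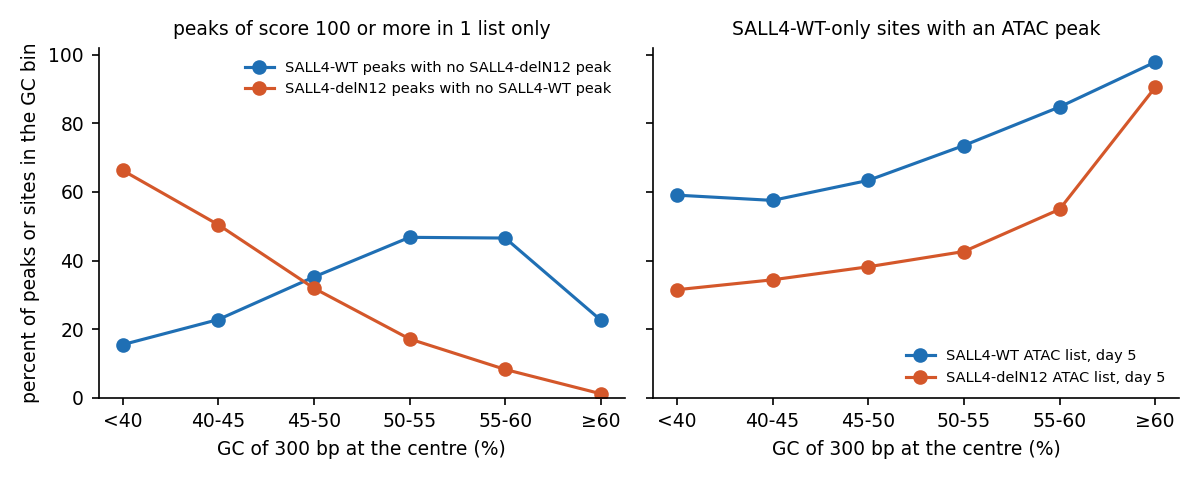
Percent of peaks or sites (y axis) in 6 bins of GC content of the central 300 bp (x axis, %). Left, peaks of score 100 or more found in 1 SALL4 list only, which peak at 46.8% (50 to 55% GC) for SALL4-WT and at 66.3% (under 40% GC) for SALL4-delN12; right, SALL4-WT-only sites with an ATAC peak at day 5, where the SALL4-WT line lies above the SALL4-delN12 line in all 6 bins.

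The scores of SALL4-WT-only sites ran from 100 to 681 with a median of 142, and 2518 of them (18.8%) scored at least 200. Shared sites had a median of 196 and SALL4-delN12-only sites 166. At the edge of the rule, 2050 sites (15.3%) scored between 100 and 110, while 2483 SALL4-WT peaks without overlap fell just short, between 90 and 100, the highest at 99.99. A SALL4-delN12 peak lay within 1 kb of 1027 sites (7.68%), the closest at 2 bp, and the median distance was 9.54 kb. On the other side of the rule, 46 shared sites (0.181%) overlapped their SALL4-delN12 peak by under 100 bp. The share of SALL4-WT peaks without a SALL4-delN12 peak was 50.4% at scores of 100 to 150, 36.3% at 150 to 200, 22.0% at 200 to 300, 9.27% at 300 to 500 and 2.53% at 500 or more, so strong SALL4-WT peaks were seldom without a counterpart. The median width was 945 bp, against 1184 bp for shared and 1020 bp for SALL4-delN12-only sites.

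The sites lay mostly away from genes' start sites. Of 13371 sites, 1784 (13.3%) were centred in a promoter, taken as 2 kb to each side of the start of a protein-coding transcript in GENCODE vM21. A further 5590 (41.8%) were in introns, 5614 (42.0%) between genes, 209 (1.56%) in coding exons and 174 (1.30%) in untranslated exons. Promoters held 24.2% of shared sites (6156) and 2.87% of SALL4-delN12-only sites (483), so SALL4-WT-only sites stood between the other sets. The median distance to the nearest start site was 26.6 kb for SALL4-WT-only, 24.3 kb for shared and 67.2 kb for SALL4-delN12-only sites. The promoter sites had a median GC of 61.7% and a median ratio of observed to expected CpG of 0.69, against 50% and 0.19 for the sites outside promoters. Repeats masked in the genome covered at least 50% of the central 300 bp at 4.58% of sites, against 29.3% of genome windows.

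**Figure D2:**
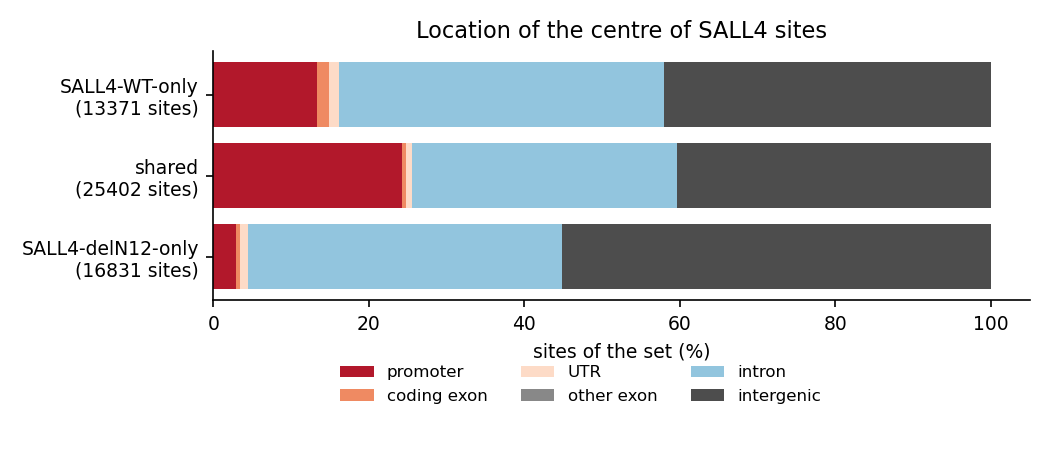
Share of sites (x axis, %) by where the centre falls, for SALL4-WT-only, shared and SALL4-delN12-only sites (rows). Promoters (2 kb to each side of a start site) take 13.3%, 24.2% and 2.87% of the sets.

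Chromatin at SALL4-WT-only sites was open more often in cells with SALL4-WT than in cells with SALL4-delN12 at each of the 4 days. In MEFs, before either form acted, 6001 sites (44.9%) overlapped an ATAC peak. Over days 1, 5, 9 and 11 with SALL4-WT, 9114 (68.2%), 9655 (72.2%), 9694 (72.5%) and 7338 (54.9%) did. With SALL4-delN12 the numbers were 7026 (52.5%), 6203 (46.4%), 5810 (43.5%) and 4228 (31.6%). Over all SALL4-WT peaks of score 100 or more, of which these sites are 34.5%, the shares were 70.4% in MEFs, 78.4%, 84.5%, 85.3% and 76.3% with SALL4-WT, and 78.7%, 75.4%, 73.9% and 62.5% with SALL4-delN12. The sites thus lay below that background in each of the 9 lists, and further below it in the SALL4-delN12 lists. Exact (Clopper-Pearson) 95% intervals, which cover counting error only, ran from 71.4 to 73% for SALL4-WT and from 45.5 to 47.2% for SALL4-delN12 at day 5. Over the 4 days, taken as 4 pairs, the share was higher with SALL4-WT by 23.4 ± 5.73 percentage points (SD over days) in 4 of 4 pairs, and the exact two-sided sign permutation test gave p = 0.125, the smallest that 4 pairs allow.

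**Figure D3:**
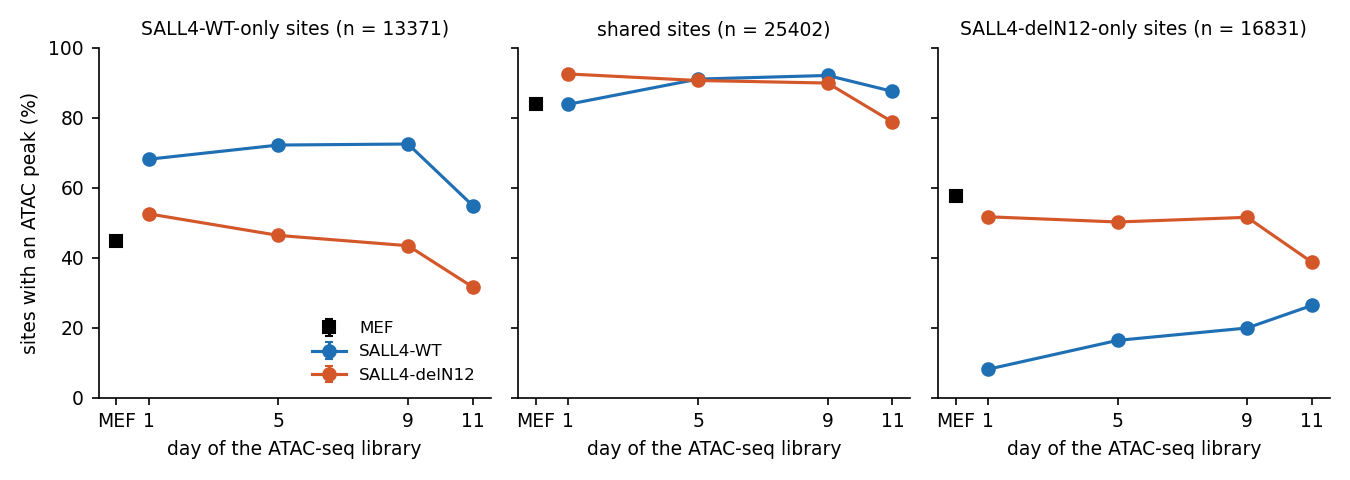
Percent of sites that overlap an ATAC peak (y axis) in MEFs (square) and at days 1, 5, 9 and 11 (x axis) with SALL4-WT or SALL4-delN12, in 3 sets of sites; bars are exact 95% intervals and are smaller than the points. SALL4-WT-only sites stand at 72.2% with SALL4-WT and 46.4% with SALL4-delN12 at day 5, shared sites at 91.0% and 90.6%, and SALL4-delN12-only sites in the opposite order.

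At day 5, the ATAC day nearest to the CUT&Tag, 5625 SALL4-WT-only sites (42.1%) had an ATAC peak with both forms, 4030 (30.1%) with SALL4-WT alone, 578 (4.32%) with SALL4-delN12 alone and 3138 (23.5%) with neither. At shared sites the same classes held 85.3%, 5.73%, 5.33% and 3.62%. At SALL4-delN12-only sites they held 13.6%, 2.78%, 36.6% and 47.0%, so a peak with 1 form alone was mostly a peak with the form whose SALL4 was there. The difference was present outside and inside promoters and wider outside. Away from promoters, 33.3% of SALL4-WT-only sites had a peak with SALL4-WT alone and 4.83% with SALL4-delN12 alone. Of the promoter sites, 83.7% had a peak with both, 9.81% with SALL4-WT alone and 1.01% with SALL4-delN12 alone. Where both forms had a peak at day 5, the score was higher with SALL4-WT at 89.2% of SALL4-WT-only sites (medians 250 and 116), at 76.7% of shared sites and at 37.5% of SALL4-delN12-only sites. At days 1, 9 and 11 the share was 57.7%, 71.9% and 82.0% for SALL4-WT-only and 30.4%, 44.7% and 77.0% for shared sites, so the sets were furthest apart at days 1 and 9 and closest at day 11. Scores depend on sequencing depth, and the median score of the whole day 5 list was 119 with SALL4-WT and 98.5 with SALL4-delN12.

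The 4030 sites open with SALL4-WT alone at day 5 differed from those open with both, and so did the 578 open with SALL4-delN12 alone. Of the placed ones open with SALL4-WT alone, 4.34% were in promoters and 35.4% had been open in MEFs. For sites open with both the shares were 26.5% and 68.6%, and for those open with SALL4-delN12 alone 3.11% and 28.2%. AP-1 matches were present in 36%, 29.0% and 39.4% of the classes in that order, and the median GC was 50.3%, 52.7% and 48.7%. SALL4-WT-only sites hold the AP-1 motif less often in promoters (11%) than outside (35.4%), and the part of promoter share in these values was not separated. The ATAC difference between forms was present across base composition, from 59.1% with SALL4-WT and 31.5% with SALL4-delN12 at sites under 40% GC, through 73.5% and 42.6% at 50 to 55% GC, to 97.8% and 90.5% at 60% GC or more. The ATAC lists differed in median GC as well, by 51.3% to 48.0% at day 1 and 51.3% to 49% at day 5 for SALL4-WT and SALL4-delN12. Both lists of day 11 had a median of 50.7%, while the ATAC share of the sites was 54.9% and 31.6%.

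Most of the sites open in MEFs stayed open with SALL4-WT, and fewer did with SALL4-delN12. Of the 6001 sites with a MEF peak, 4071 (67.8%) had a peak at all 4 days with SALL4-WT and 2679 (44.6%) at all 4 days with SALL4-delN12. At shared sites with a MEF peak the shares were 82.1% and 81.5%. No peak was called at any day for 204 of them with SALL4-WT and 792 with SALL4-delN12. Of the 7370 sites with no MEF peak, 5913 (80.2%) gained a peak on at least 1 day with SALL4-WT and 3808 (51.7%) with SALL4-delN12, against 90.6% with each form at shared sites without a MEF peak. A gain at all 4 days was found at 1685 sites with SALL4-WT and 375 with SALL4-delN12, and 381 sites were open at all 4 days with SALL4-WT and at none with SALL4-delN12, against 8 in the reverse. At the 4112 shared sites without a MEF peak these last counts were 29 and 32. Many gains did not last, since 2121 of the 7370 sites had a SALL4-WT peak at day 1 and none at day 11. For 1071 sites no ATAC peak was called in MEFs or at any day with either form.

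H3K27ac was found at a minority of SALL4-WT-only sites, slightly more often with SALL4-delN12. A peak overlapped 3246 sites (24.3%) with SALL4-WT and 3819 (28.6%) with SALL4-delN12, against 37.8% and 62.7% of all SALL4-WT peaks of score 100 or more. The SALL4-delN12 list is the longer one, and at shared sites the counts differed in the same direction, with 11425 sites (45%) marked with SALL4-WT and 20511 (80.7%) with SALL4-delN12. At SALL4-delN12-only sites they were 199 (1.18%) and 5236 (31.1%). A site in a promoter carried the mark more often than one outside, at 71.7% and 79.0% of SALL4-WT-only promoter sites with SALL4-WT and SALL4-delN12. Outside promoters, where most of the sites lie, the shares were 17.0% and 20.8%, against 30.4% and 75.6% at shared sites away from promoters.

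The direction of the H3K27ac difference at SALL4-WT-only sites turned with the SALL4 score. Among the 1087 SALL4-WT-only sites that scored 250 or more, 39.1% had an H3K27ac peak with SALL4-WT and 31.6% with SALL4-delN12. At scores of 150 to 250 the shares were 28.5% and 30.5%, and at 100 to 150 they were 19.6% and 26.9%. At SALL4-delN12-only sites of score 250 or more, 0.274% had the mark with SALL4-WT and 48.0% with SALL4-delN12. At shared sites of that score the direction did not turn, with 64.0% and 90.1%. By site, 2395 SALL4-WT-only sites (17.9%) were acetylated with both forms, 851 (6.36%) with SALL4-WT alone, 1424 (10.7%) with SALL4-delN12 alone and 8701 (65.1%) with neither. Of the sites acetylated with both, 51% were in promoters and 86.0% had a MEF ATAC peak. Of those acetylated with SALL4-WT alone, 6.71% were in promoters, 41.6% had a MEF ATAC peak and 87.4% had an ATAC peak with SALL4-WT at day 5, against 47.9% with SALL4-delN12. The H3K27ac lists had a median GC of 55.3% with SALL4-WT and 50% with SALL4-delN12, and the part of list size and GC in these shares was not tested.

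**Figure D4:**
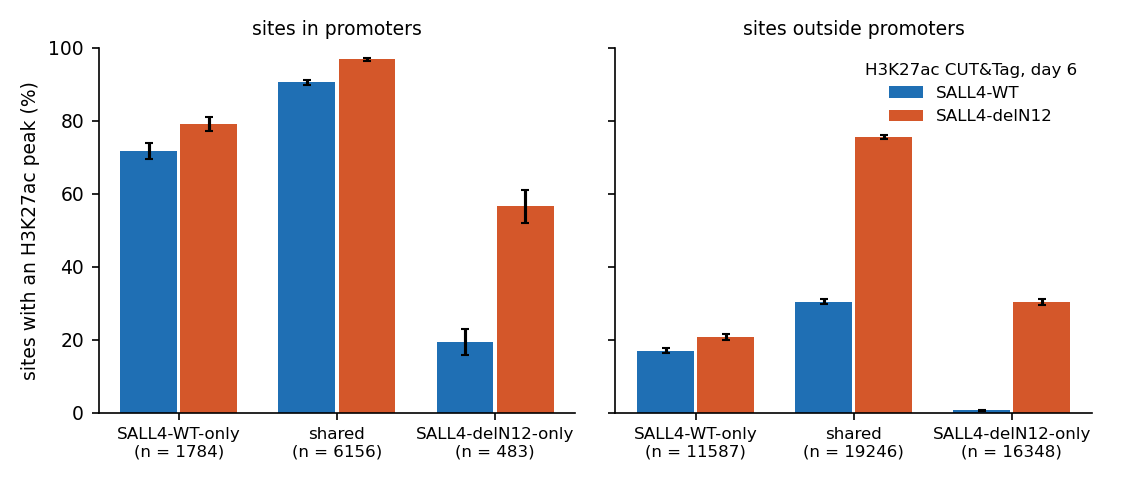
Percent of sites that overlap an H3K27ac peak at day 6 (y axis) with SALL4-WT or SALL4-delN12, for 3 sets of sites in promoters (left) and outside promoters (right); bars are exact 95% intervals. Outside promoters the forms are 17.0% and 20.8% at SALL4-WT-only sites and 30.4% and 75.6% at shared sites.

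The 20 sites with the highest SALL4-WT scores, from 681 at Tmem26 to 468 at Rnf144b, are named here by the gene with the nearest start site, which lay between 2.79 kb (Tff1) and 1231 kb (Csmd1) away. None was in a promoter. The Tmem26 site is a tandem repeat, in which 60.1% of the bases of the central 300 bp equal the base 1 repeat unit further on. The cut for such a repeat was met by 0.329% of SALL4-WT-only sites, and its part in the score was not tested. All 20 had an ATAC peak with SALL4-WT at days 1 and 5, 18 at day 9 and 17 at day 11, and 15 had one in MEFs. With SALL4-delN12 the numbers were 16, 14, 13 and 4, so the difference was widest at day 11. Over all SALL4-WT-only sites the ATAC shares at these days were 68.2%, 72.2%, 72.5% and 54.9% with SALL4-WT. With SALL4-delN12 they were 52.5%, 46.4%, 43.5% and 31.6%, and in MEFs 44.9%. An H3K27ac peak was called at 12 of the 20 with SALL4-WT and at 6 with SALL4-delN12. Over all SALL4-WT-only sites the H3K27ac shares ran the other way, at 24.3% and 28.6%. The site in an intron of Nell2, a gene that encodes a secreted glycoprotein, had ATAC scores of 165 in MEFs, 581, 489, 425 and 313 at days 1, 5, 9 and 11 with SALL4-WT and 191, 96.4, 144 and 80.8 with SALL4-delN12. It had an H3K27ac score of 154 with SALL4-WT and no H3K27ac peak with SALL4-delN12.

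The site nearest Slc25a25, which encodes a mitochondrial ATP and phosphate carrier, had no MEF peak and ATAC scores of 471, 522, 518 and 304 with SALL4-WT against 61.3, 85.8 and 57.8 at days 1, 5 and 9 and no peak at day 11 with SALL4-delN12. The site nearest Rnf144b, an E3 ubiquitin ligase gene, also had no MEF peak, with 830, 452, 401 and 108 with SALL4-WT and 334, 84.2, 71.6 and no peak with SALL4-delN12. The site nearest Arl4d, a small GTPase gene, started from a MEF score of 390 and gave 653, 538, 632 and 327 with SALL4-WT and 258, 73.4, 283 and no peak with SALL4-delN12. Not all of the 20 moved this way. At the site nearest Skor1, which encodes a SKI family corepressor, the scores at days 1, 5, 9 and 11 were 138, 247, 202 and 195 with SALL4-WT and 150.5, 172, 268 and 282 with SALL4-delN12. The Csmd1 site had scores of 51.8 and 64.2 with SALL4-WT at days 1 and 5 and none at days 9 and 11, from 274 in MEFs, while SALL4-delN12 had 97.0 at day 1 and no peak after it.

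RNA of the genes nearest these 20 sites differed in both directions. Epn2, which encodes the endocytic adaptor epsin 2, was at 28.5, 23.3, 31.5 and 23.2 FPKM at days 1, 5, 9 and 11 with SALL4-WT and 10.5, 13.3, 15.4 and 11.9 with SALL4-delN12, higher with SALL4-WT at all 4 days. In the fit over the 4 days with day as a block, described with the promoter genes, 10 of the 20 genes could be tested. Of these 10, 8 had a difference below 0 and 2 above, against 49.2% below 0 over all genes. At an adjusted p under 0.05 by limma, 3 (Epn2, F5 and Grk5) were lower with SALL4-delN12, against 8.90% of all genes tested. Rnf144b was the 1 that was higher, against 6.81% of all genes, but it reached 1 FPKM with SALL4-delN12 alone. It passed the minimum through that form, so its call is not a test. F5, coagulation factor V, was at 0.54, 1.86, 3.59 and 7.68 FPKM with SALL4-WT and 0.16, 0.67, 1.53 and 3.08 with SALL4-delN12. Grk5, a kinase of G protein-coupled receptors, reached 6.51 FPKM at day 11 with SALL4-WT and 2.07 with SALL4-delN12. In the other direction, Rnf144b was at 0.14, 0.16, 0.29 and 0.91 FPKM with SALL4-WT and 0.99, 2.48, 2.56 and 2.63 with SALL4-delN12. Ifrd1 lay between 23.9 and 37.6 FPKM and Pja2 between 16.8 and 28.8 FPKM in the 8 libraries, and neither differed by 1 on the log2(FPKM+1) scale at any day. Among the 10 that could not be tested, Limch1 was at 0.33 and 1.84 FPKM and Sdk2 at 0.05 and 0.56 FPKM at day 5 with SALL4-WT and SALL4-delN12. Gm9376 was listed at 0 in all 8 libraries, and Csmd1 reached at most 0.015 FPKM.

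A SALL4-WT-only site lay in the promoter of 1921 genes, of which 121 also had a shared site there, and 1840 of the 1921 were in the FPKM table. Differences are given as log2(FPKM+1) with SALL4-delN12 minus that with SALL4-WT, which understates the change of low genes, and a gene entered at a day when its FPKM was at least 1 in either library. At days 1, 5, 9 and 11 this left 1432, 1466, 1492 and 1511 of the 1840. The median difference was -0.04, -0.03, 0.02 and 0.04, against -0.03, -0.01, 0.03 and 0.01 over all protein-coding genes that passed. Counting genes at least 1 higher with SALL4-delN12 gave 53, 54, 84 and 85 at the 4 days (3.70%, 3.68%, 5.63% and 5.63%), against a background of 3.77%, 4.44%, 5.76% and 6.25%. Genes at least 1 lower numbered 81, 76, 87 and 92 (5.66%, 5.18%, 5.83% and 6.09%), against 5.13%, 4.84%, 5.66% and 6.05%. The shares lay near the background of all genes in both directions. They lay above those of genes with a shared and no SALL4-WT-only site in the promoter, of which 1.90%, 1.5%, 2.04% and 2.70% were higher and 2.48%, 2.41%, 3.42% and 3.65% lower, a difference that was not tested. For promoter sites with a SALL4 score of at least 200, 200, 205, 210 and 209 genes passed. Of these, 2.0%, 2.93%, 3.81% and 7.66% were higher and 5.5%, 6.83%, 7.14% and 7.66% lower. With a pseudocount of 0.1 in place of 1 the counts of promoter genes were 87, 90, 122 and 128 higher and 116, 110, 126 and 143 lower. The shares of all genes moved alike, to 5.72%, 7.00%, 8.75% and 9.27% higher, against 6.08%, 6.14%, 8.18% and 8.47% of promoter genes, and to 7.76%, 7.35%, 8.10% and 9.33% lower, against 8.10%, 7.5%, 8.45% and 9.46%. A gene that passed through 1 library alone had to differ, and how far this moves the shares was not separated.

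In the fit of all 8 RNA libraries, 11431 protein-coding genes with a mean of at least 1 FPKM were tested by limma on log2(FPKM+1), with day as a block, and p-values were adjusted over all of them. A gene that reached this mean through 1 form alone leaned toward that form, and how far this moves the counts was not separated. With a threshold of 0.05 on the adjusted p, 779 genes (6.81%) were higher and 1017 (8.90%) lower with SALL4-delN12. Of the 1442 promoter genes tested, 93 (6.45%) were higher and 152 (10.5%) lower, and their median difference was 0.00, against 0.01 over all genes. The numbers depend on the days, for promoter genes and for all genes. Without day 1, 167 promoter genes (11.6%) were higher and 189 (13.1%) lower, against 11.6% and 12.8% of all genes. Without day 5 it was 28 (1.94%) and 42 (2.91%), against 1.41% and 2.34%, and without day 9 it was 23 (1.60%) and 37 (2.57%), against 1.30% and 2.06%. Without day 11 it was 56 (3.88%) and 76 (5.27%), against 3.44% and 4.58%. Dropping the block gave 41 (2.84%) and 65 (4.51%), against 2.50% and 3.63%, and dropping the minimum of 1 FPKM gave 9 (0.489%) and 23 (1.25%), against 0.459% and 0.821%.

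Genes with several sites nearby were counted next. Within 50 kb, 8778 sites had 6159 nearest genes, of which 551 were nearest to 3 or more and 49 to 5 or more. For the genes of 3 or more sites, 393, 414, 423 and 429 of which passed at days 1, 5, 9 and 11, the median difference was -0.03, -0.00, -0.03 and -0.14. Genes at least 1 higher with SALL4-delN12 made up 8.40%, 9.66%, 9.46% and 6.99% of them, against 3.77%, 4.44%, 5.76% and 6.25% of all genes, and genes at least 1 lower 5.85%, 7.00%, 8.98% and 9.32%, against 5.13%, 4.84%, 5.66% and 6.05%. Higher genes thus outnumbered lower ones at days 1, 5 and 9, and lower ones outnumbered higher ones at day 11. Fitted over the 4 days, 42 of the 401 tested (10.5%) were higher and 67 (16.7%) lower, against 6.81% and 8.90% of all genes. The fit of this set was not repeated without single days. A gene counted here, or for SALL4-delN12-only sites below, could also be nearest to sites of another set. Genes nearest to any number of SALL4-WT-only sites and to no other site gave 4.68%, 6.56%, 8.30% and 8.69% higher and 5.94%, 6.16%, 6.54% and 6.67% lower. Their median at day 11 was 0.10. For genes nearest to 3 or more SALL4-delN12-only sites, lower genes outnumbered higher ones at all 4 days. At days 1, 5, 9 and 11, 2.24%, 3.64%, 4.62% and 4.05% were higher and 7.09%, 11.6%, 13.2% and 16.8% lower, and the median at day 11 was -0.22. The 5 genes with most SALL4-WT-only sites were Kalrn with 10, Ksr1 with 9, and Ctbp2, Dst and Mcf2l with 8 each. Kalrn and Mcf2l, both guanine nucleotide exchange factors, reached at most 0.38 and 0.35 FPKM in the 8 libraries. Ksr1, a scaffold of the RAF and MEK kinases, was at 2.36, 2.26, 1.43 and 1.71 FPKM with SALL4-WT and 3.55, 0.90, 0.93 and 1.00 with SALL4-delN12. Ctbp2, a corepressor, was between 6.28 and 13 FPKM and Dst, which encodes the cytoskeletal linker dystonin, between 1.83 and 3.74 FPKM in the 8 libraries.

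Among promoter genes that reached 5 FPKM with either form, the 5 largest differences in each direction at days 5 and 11 named 17 genes, shown in the plot of FPKM by day. These 17 were picked on these same libraries, so the fit over the 4 days cannot test them. Their differences over the days are given as sizes only. The genes higher with SALL4-delN12 included 3 keratin genes. Krt8, which encodes the type II keratin of simple epithelia and of primitive endoderm, was at 9.79, 11.3, 21.8 and 31.8 FPKM at days 1, 5, 9 and 11 with SALL4-WT and 141, 166, 170 and 169 with SALL4-delN12. It was higher with SALL4-delN12 at all 4 days, by 3.72, 3.76, 2.91 and 2.38 on the log2(FPKM+1) scale, and by 3.19 over the days. Its SALL4-WT-only site (score 140) had an ATAC peak in all 9 lists, with scores of 296 with SALL4-WT and 59.4 with SALL4-delN12 at day 5, and an H3K27ac peak with SALL4-WT alone. Krt19, a type I keratin of simple epithelia, was at 6.04, 12.9, 17.2 and 10.0 FPKM with SALL4-WT and 41.9, 44.8, 45.6 and 77.6 with SALL4-delN12. Its site (score 149) had ATAC scores of 499 in MEFs and 78.2, 331, 197 and 117.5 with SALL4-WT at the 4 days, while with SALL4-delN12 a peak was called at day 9 alone (78.7), and H3K27ac was called with SALL4-delN12 alone.

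Krt79, an epithelial keratin, was at 0.25, 0.22, 0.78 and 0.41 FPKM with SALL4-WT and at 15.4, 16.3, 10.2 and 4.35 FPKM with SALL4-delN12, and its promoter also held a shared site. Dmkn, which encodes the epidermal protein dermokine, was lower with SALL4-delN12 at day 1 (3.37 and 0.18 FPKM with SALL4-WT and SALL4-delN12) and higher at day 5 (3.59 and 40.5 FPKM). Its order thus turned, and over the days its difference was 0.81. Tnnt3, fast skeletal troponin T, was at 0.12, 0.42, 0.33 and 0.42 FPKM with SALL4-WT and 3.89, 21.9, 8.95 and 5.29 with SALL4-delN12. The difference at day 5, 4.01, was the largest among these genes at that day, and over the days it was 2.80, higher at 4 of 4 days. Tnnt3 reached 5 FPKM with SALL4-delN12 alone. Its site (score 147) had no MEF peak, ATAC scores of 95.8, 181, 55.3 and 59.1 with SALL4-WT and 56.7, 67.3, 208 and 132 with SALL4-delN12, so the order turned after day 5, and an H3K27ac peak with SALL4-WT alone. Dusp9, a phosphatase of ERK kinases, was at 15.0, 13.5, 11.2 and 12 FPKM with SALL4-WT and 17.0, 103, 149 and 108 with SALL4-delN12, so the forms parted after day 1. The 4 keratinocyte markers, named above, summed to 1.84 FPKM with SALL4-WT and 28.0 with SALL4-delN12 at day 5, with 3 of 4 higher with SALL4-delN12 and Trp63 at most 0.23 FPKM in the 8 libraries. Their part in the keratin and Dmkn values was not tested.

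Among the genes lower with SALL4-delN12, Lbp, the lipopolysaccharide binding protein, was at 19.5, 65.8, 67.4 and 94.4 FPKM with SALL4-WT and 4.32, 11.2, 6.45 and 8.75 with SALL4-delN12. It was lower with SALL4-delN12 at all 4 days, with a difference over the days of -2.72. Its site (score 204) had ATAC scores of 90.1, 662, 372 and 584 with SALL4-WT and no peak, 83.4, 90.3 and 50.1 with SALL4-delN12, with no peak in MEFs. Kng1, the precursor of bradykinin, stood at 1.53, 20.8, 39.9 and 73.8 FPKM over the 4 days with SALL4-WT and at 0.59, 3.76, 2.11 and 4.81 with SALL4-delN12. Tgm3, a transglutaminase, was at 4.35, 30.2, 61 and 42.2 FPKM with SALL4-WT and 1.41, 2.55, 0.39 and 0.62 with SALL4-delN12, and its site (score 166) had ATAC peaks at all 4 days with SALL4-WT and at none with SALL4-delN12 or in MEFs. Steap4, a metalloreductase, was at 4.58, 26.1, 13.9 and 32.6 FPKM with SALL4-WT and 0.16, 4.53, 2.22 and 1.71 with SALL4-delN12. Prss23, a serine protease, was at 47.1, 33.9, 27.3 and 38.1 FPKM and 13.6, 3.14, 3.29 and 2.29. Fabp7, a fatty acid binding protein, was at 12.7 and 20.1 FPKM at days 5 and 9 with SALL4-WT and at most 0.67 at any day with SALL4-delN12. Bst1, an ADP-ribosyl cyclase of bone marrow stroma, lay between 12.7 and 23.2 FPKM with SALL4-WT and between 0.83 and 2.11 with SALL4-delN12.

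**Figure D5:**
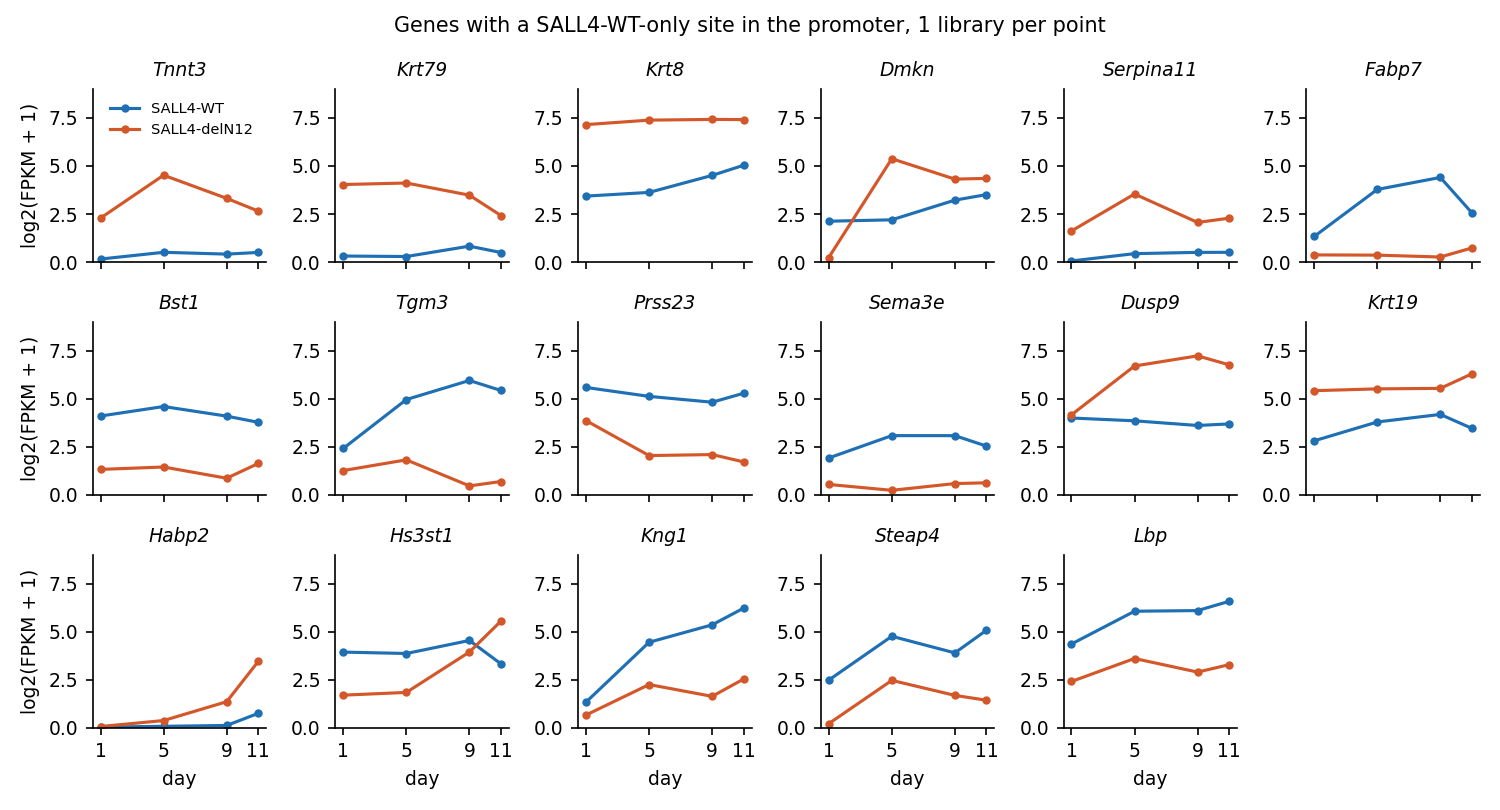
log2(FPKM+1) (y axis) at days 1, 5, 9 and 11 (x axis) with SALL4-WT and SALL4-delN12 of the 17 promoter genes with the largest differences at day 5 or 11; each point is 1 library. Krt8 and Krt19 lie higher with SALL4-delN12 at all 4 days and Lbp, Tgm3, Bst1 and Prss23 lie lower, while the lines of Dmkn and Hs3st1 cross.

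Genes of the lineages and pathways of this system were looked at by list, counting a gene that had a SALL4-WT-only site in its promoter or was the nearest gene to one within 50 kb. Over all 21924 protein-coding genes this held for 28.8%. It held for 12 of 24 primitive endoderm genes, with a promoter site at Nid1 and sites near, among others, Gata4, Gata6, Sox7, Dab2, Lamb1, Col4a1, Cubn, Lrp2, Pdgfra and Pth1r. At day 1, none of the 9 that passed the FPKM minimum was at least 1 higher with SALL4-delN12 and 1 was lower (background of all genes 3.77% and 5.13%). At day 5 it was 1 higher and 2 lower of 9 (background 4.44% and 4.84%). At day 9, 3 of 11 were higher and 2 lower (background 5.76% and 5.66%), and at day 11, 5 of 11 higher and 1 lower (background 6.25% and 6.05%). The medians at the 4 days were 0.01, -0.19, 0.19 and 0.69. Sox17, Foxa2 and Lama1, list members without such a site, were also higher with SALL4-delN12 at day 11. They stood at 16.2, 7.68 and 50.2 FPKM, against 0.22, 0.46 and 3.38 with SALL4-WT. Other members without a site were not compared, so the counts do not set genes with a site apart from the rest of the list. In the fit over the 4 days, 1 of the 10 tested (Pth1r) was higher and 1 (Nid1) lower with SALL4-delN12, near the 6.81% and 8.90% of all genes. Gata4, the zinc finger factor that drives primitive endoderm, has 1 site 36.4 kb from its start, at chr14:63280903-63282483, with a score of 373 and it was the nearest gene within 50 kb to no shared and no SALL4-delN12-only site. That site had ATAC scores of 89.8, 89.9 and 189 at days 1, 5 and 9 with SALL4-WT and a peak at day 9 alone with SALL4-delN12 (69.4), and no H3K27ac peak with either form. Gata4 RNA was at 1.04, 0.81, 0.96 and 1.51 FPKM with SALL4-WT and 0.50, 1.91, 9.48 and 29.3 with SALL4-delN12, lower at day 1 and higher at the 3 later days, and its difference over the days, 1.56, did not pass (limma adjusted p = 0.153). Pth1r, the receptor of parathyroid hormone and a marker of parietal endoderm, was at 1.27, 1.55, 1.07 and 3.76 FPKM with SALL4-WT and 2.85, 4.16, 13.7 and 45 with SALL4-delN12. Nid1, a basement membrane protein, went the other way, with 225, 191, 316 and 133 FPKM with SALL4-WT and 46.0, 74.1, 110 and 50.7 with SALL4-delN12. Its promoter site had an ATAC score of 469 in MEFs and no peak at any day with SALL4-WT. With SALL4-delN12 the site had peaks at days 5 and 9 alone (69.0 and 108), and H3K27ac was called there with SALL4-delN12 alone (144).

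Of 23 pluripotency genes, 3 had a site: Sox2 in the promoter, and Esrrb and Klf2 nearby. Sox2 RNA was at 0.52, 1.25, 1.43 and 1.73 FPKM with SALL4-WT and 0.05, 0.13, 0.08 and 0.18 with SALL4-delN12. Esrrb, an orphan nuclear receptor, was at 0.03, 1.85, 1.82 and 2.00 FPKM with SALL4-WT and 1.46, 21, 15.5 and 6.49 with SALL4-delN12, and has 3 SALL4-WT-only and 4 shared sites nearby. Of 27 fibroblast genes, 10 had a site. At days 1, 5, 9 and 11, 3, 1, 1 and 1 of these 10 were at least 1 higher with SALL4-delN12 and 2, 3, 5 and 4 lower, with medians of -0.16, -0.67, -0.86 and -0.62 (background 3.77% to 6.25% higher and 4.84% to 6.05% lower). The fit over the 4 days gave 2 of the 10 higher and 3 lower, against 6.81% and 8.90% of all genes. Fn1, fibronectin, was at 467, 756, 895 and 958 FPKM with SALL4-WT and 218, 87.7, 110 and 87.4 with SALL4-delN12, lower at all 4 days. Prrx1, a homeobox factor of mesenchyme, was at 28.1, 41.1, 43.9 and 47.3 FPKM and 10.5, 12.9, 10.3 and 12.6. Tgfbi, an extracellular matrix protein, was the 1 that was at least 1 higher at days 5, 9 and 11, with 8.18, 47.7, 19.3 and 19.5 FPKM with SALL4-WT and 31.5, 115, 85.5 and 93.5 with SALL4-delN12.

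Signaling genes were listed for 2 pathways. In the BMP and TGF-beta list it was 19 of 33 genes, with promoter sites at Smad1, Smad7, Smad9 and Tgfb2, and in the WNT list 16 of 28, with promoter sites at Ctnnb1, Nkd1, Tcf7l2, Wnt5b and Wnt9a. At days 1, 5, 9 and 11, of the 16, 17, 18 and 18 genes of the first list that passed, 2, 1, 1 and 3 were at least 1 higher with SALL4-delN12 and 4, 3, 3 and 3 lower, with medians of -0.25, -0.55, -0.28 and -0.22. Over all genes, from 3.77% to 6.25% were higher and from 4.84% to 6.05% lower at a day. Of the 15 of the WNT list, 2, 2, 4 and 2 were higher and 3, 1, 2 and 3 lower, with medians of 0.32, 0.15, 0.46 and 0.24. In the fit over the 4 days, 1 of 17 genes of the first list was higher and 5 lower, and 6 of 15 WNT genes were higher and 2 lower, against 6.81% and 8.90% of all genes. Ligands of the first list differed in both directions. Bmp2 was at 48.1, 57.5, 73.4 and 45.4 FPKM with SALL4-WT and 1.20, 4.19, 4.40 and 3.90 with SALL4-delN12, while Bmp7 was at 3.75, 23.8, 19.2 and 20.4 and 76.9, 99.0, 128 and 66.0. Among inhibitors of WNT signaling, Sfrp2, which binds the ligands, was at 314, 115, 57.9 and 60.1 FPKM with SALL4-WT and 12.3, 9.20, 9.78 and 13.4 with SALL4-delN12. Nkd1, which acts on Dishevelled inside the cell, was at 12, 27.2, 22.1 and 23.4 FPKM and 69.7, 80.5, 123 and 71.9. The ligand Wnt7b was at 1.51, 0.20, 1.01 and 1.03 FPKM and 6.83, 16.1, 26.0 and 5.85. Wnt7b is 1 of the 6 WNT genes called higher. Its mean with SALL4-WT fell short of 1 FPKM, so it passed the minimum of the fit through SALL4-delN12 and its call is not a test.

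Genes of the NuRD complex had sites at 7 of 15, in the promoters of Cdk2ap1, Mta2 and Mta3 and near Chd4, Chd5, Gatad2a and Gatad2b. None of the 6 that passed differed by 1 at any of the 4 days, when 3.77% to 6.25% of all genes were higher and 4.84% to 6.05% lower by that much, so few or none of 6 would be at such shares. Chd4, its remodeling subunit, was between 44.4 and 52.5 FPKM in the 8 libraries. The AP-1 list had 4 of 12, with Fosb and Maff in promoters and Batf and Fosl2 nearby, and of these Fosb alone was past 1, lower with SALL4-delN12 at days 5 and 9, when 4.84% and 5.66% of all genes were (4.02 and 0.90 FPKM at day 5 with SALL4-WT and SALL4-delN12). Over the 4 days, Fosb did not pass (a difference of -0.67, limma adjusted p = 0.185). Fosl2 was the 1 of the 4 that did, lower at 4 of 4 days (-0.51, limma adjusted p = 0.0409). In the same fit 6.81% of all genes were higher and 8.90% lower, so 1 of 4 is too few to set the list apart. The cell cycle and p53 list had 9 of 24, with promoter sites at Cdk2, Cdkn1a, Mdm2, Mki67 and Rb1. Fitted over the 4 days, 1 of the 9 was higher and 4 were lower with SALL4-delN12 by limma, against 6.81% and 8.90% of all genes. The lower ones were the kinase gene Cdk6 (-1.02), Myc (-0.90), Mdm2, which encodes the ubiquitin ligase of p53 (-0.62), and the retinoblastoma gene Rb1 (-0.59), each lower at 4 of 4 days. The higher one, Ccnd1 or cyclin D1, was higher with SALL4-delN12 at all 4 days, at 285, 163, 187 and 107 FPKM with SALL4-WT and 824, 386, 501 and 260 with SALL4-delN12, and Cdkn1a, the p21 inhibitor, lay between 369 and 580 FPKM in the 8 libraries. Hox genes had sites at 4 of 39 and histone genes at 5 of 99, both below the 28.8% of all genes. Of the SALL family, Sall1 alone had sites, 3 of them, with at most 0.85 FPKM with SALL4-WT and 2.15 with SALL4-delN12.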

How the data were processed

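CUT&Tag for SALL4 and H3K27ac, RNA-seq and ATAC-seq were made by the authors from mouse embryonic fibroblasts given SALL4-WT or SALL4-delN12, with 1 library or merged peak list per condition. Per the submitters' processing notes, reads were trimmed with Trim Galore 0.6.4, CUT&Tag and ATAC reads were mapped to mm10 with Bowtie2 2.4.5, filtered with SAMtools 1.16.1 and called with MACS 1.4.2, and RNA reads were mapped with HISAT2 2.2.1 and quantified with StringTie 2.2.1. CUT&Tag replicates were merged before peak calling, and short fragments alone were used for ATAC-seq. The deposited peak lists give a MACS score, which is not scaled between libraries, and the deposited RNA table gives FPKM computed by the authors. The numbers of reads behind these values were not derived from the files, so the depth is unknown. The other RNA and single-cell tables hold no library with a SALL4 form alone and were not used here.

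Sites, overlaps (1 bp), locations (GENCODE vM21, promoters 2 kb to each side of a start site), GC content and motifs (central 300 bp, RefSeq GRCm38.p6) were computed with Python 3.11.15, numpy 2.4.6, pandas 2.3.3 and scipy 1.17.1, and plots with matplotlib 3.10.9. The steps were first tested on simulated data. RNA was compared as log2(FPKM+1) where a gene had at least 1 FPKM in either library of a day, and a difference of 1 was counted. The 8 RNA libraries were also fitted in 1 model with limma 3.58.1 in R 4.3.3, form plus day as a block, with 3 residual degrees of freedom and Benjamini-Hochberg adjustment over the genes with a mean of at least 1 FPKM. This fit was chosen after seeing the data. Named genes were the 5 largest rises and falls at days 5 and 11 among promoter genes of at least 5 FPKM, the 5 genes with most sites, the genes nearest the 20 highest sites, and members of fixed lists with a site. The members and the lists were chosen with earlier results of these data known. Alternatives changed the score minimum, overlap, promoter width, GC window, pseudocount and scaling. Some sequences and genes are not reported here.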

Additional observations from a re-analysis of the deposited data

Results flagged for a closer look

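Among the genes named by the rules on differences, site numbers and lists, 4 stood out, and other genes with a SALL4-WT-only site were not searched. For these, the difference between the forms, SALL4-delN12 minus SALL4-WT on the log2(FPKM+1) scale, was at least 1 in one direction at some day and at least 1 in the other direction at another day. Each value compares 1 library with 1 library, and the difference between days was not tested. Dmkn stood at -1.89 at day 1 and 3.18 at day 5. Hs3st1, which encodes a heparan sulfate sulfotransferase and also has a shared site in its promoter, stood at -2.24 at day 1 and 2.22 at day 11. Col6a1, a chain of collagen VI with 3 SALL4-WT-only sites nearby, stood at 1.01 at day 1 and -2.66 at day 11. Klf2, a zinc finger factor of naive pluripotency, stood at -1.08 at day 5 and 1.32 at day 11.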

How the results depend on the processing

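For each value below the cause was not tested, and the settings by GC content, outside promoters and with long non-coding RNAs, and those of the fit over the 4 days, were chosen after seeing the data. The number of sites was 34002 with a score minimum of 50, 2518 with a minimum of 200 and 8635 at 45 to 55% GC. The promoter share was 11.6% and 18.2% with promoters of 1 kb and 5 kb, 9.89% at score 200 and 15.8% with start sites of long non-coding RNAs. The ATAC share at day 5 was 53.6% with SALL4-WT and 25.6% with SALL4-delN12 for ATAC scores of at least 100, 12% and 5.43% when the overlap had to cover at least 50% of the site, 84.7% and 55.6% at SALL4 score 200, 68.6% and 40.5% at 45 to 55% GC, and 68.9% and 40.5% outside promoters, so SALL4-WT stayed higher under these 5 settings. The H3K27ac share was 11.4% with SALL4-WT and 17.3% with SALL4-delN12 for H3K27ac scores of at least 100, 25.4% and 31.6% within 1 kb, 16.2% and 20.3% at 45 to 55% GC, 17.0% and 20.8% outside promoters, and 35.1% and 31.8% at SALL4 score 200, where the order turned. Median GC was 49% over the whole peak and 51% over 100 bp. The median RNA difference of promoter genes became -0.016 at day 1 and 0.0025 at day 9 with scaled libraries, -0.090 at day 1 and -0.022 at day 9 at SALL4 score 200, and 0.00035 at day 9 and -0.031 at day 11 for nearest genes within 50 kb. In the fit over the 4 days, 286 genes were higher and 415 lower with SALL4-delN12 without the block, and 94 and 168 without the minimum of 1 FPKM, with 41 and 65, and 9 and 23, of the promoter genes. Leaving out 1 day in turn gave from 149 to 1326 genes higher and 236 to 1462 lower, and from 23 to 167 and 37 to 189 promoter genes. A pseudocount of 0.1 kept the counts of this fit within 1.5 times, but it raised the share of promoter genes at least 1 higher at a single day to 6.08%, 6.14% and 8.47% at days 1, 5 and 11 and the share at least 1 lower to 9.46% at day 11, with 5.72%, 7.00%, 9.27% and 9.33% of all genes in the same order. Of the values of named genes under other settings, 397 stayed the same and 15 moved. ATAC peaks are narrow, with list medians of 214 to 240 bp against 945 bp for the sites, which bears on the overlap of 50%. Unknown depth and 1 library per condition limit all comparisons.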
